A study of Saccharomyces cerevisiae with 93 samples.

Results

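The transcripts of ARO9 (YHR137W), ARO10 (YDR380W), ARO80 (YDR421W), PDC1 (YLR044C), PDC5 (YLR134W) and PDC6 (YGR087C) were followed through a study of alpha-synuclein toxicity, and of compounds that relieve it, in budding yeast. The 6 genes were chosen by name, and each was measured by 1 of the 6377 probes of the arrays. Cells carried 2 copies of an alpha-synuclein fusion gene (2-copy cells), 1 copy (1-copy cells) or the empty vector (vector cells), and were sampled 0, 2, 4 or 6 h after induction in galactose. At each time the 3 strains were compared in all 3 combinations on dual-colour arrays, with the 2-copy or 1-copy sample in Cy5 against the vector sample in Cy3, and the 1-copy sample in Cy5 against the 2-copy sample in Cy3. At 4 h, 2-copy and vector cells were also grown with or without 1 of 6 compounds, and 2-copy cells with a compound were set against vector cells with the same compound. Per the label of 1 sample, the 2-copy strain is W303 of mating type MATa with ade2-1, ura3-1, trp1-1 and can1-100, the double alleles 3 and 112 of leu2 and 11 and 15 of his3. It has pdr1 and pdr3 deleted by kanMX and carries pRS304GAL-a-syn-GFP and pRS306GAL-a-syn-GFP. Alpha-synuclein joined to GFP is thus made from a galactose promoter in cells that lack both regulators of the drug pumps. The label calls these strains pump mutants; whether the 1-copy and vector strains carry the same deletions is not known here. Starter cultures grew from single colonies, each comparison has 3 pairs of biological replicates (6 arrays for 2-copy over vector at 4 h), and no source used here gives the doses of the compounds. No probe measured alpha-synuclein or GFP.

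Baker's yeast breaks down aromatic amino acids by the Ehrlich pathway. ARO9 encodes aromatic aminotransferase II, which turns phenylalanine, tyrosine and tryptophan into their keto acids. ARO10 encodes phenylpyruvate decarboxylase, which removes carbon dioxide from those keto acids, and ARO80 encodes the zinc-cluster activator that induces ARO9 and ARO10 when aromatic amino acids are present. Pyruvate decarboxylase is the related enzyme of alcoholic fermentation and, like Aro10, uses thiamine pyrophosphate as cofactor. PDC1 encodes its main isozyme, PDC5 a minor isozyme whose transcript rises when PDC1 is lost or thiamine is short, and PDC6 a minor isozyme tied to growth on little sulfur. The PDC genes are alike in sequence, and whether their probes share signal was not tested.

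All values are log2 ratios with 1 value per probe and array, so that a value of 1 is a 2-fold difference. They compare samples and give no level of a gene, and a lower ratio cannot tell less RNA in every cell from fewer cells with the RNA. Of the 93 arrays, 10 were left out as their rows are suspect: arrays 2 and 3 of compound 3 in 2-copy cells, array 3 of compounds 4 and 6 in 2-copy cells, and arrays 2 and 3 of the comparisons of both strains under compound 3, 4 or 6. Over all 6377 probes the arrays left out correlated with the kept arrays of their own groups at r between -0.0369 and 0.214. Pairs of left-out arrays of 1 group correlated at 0.557 to 0.897 and the kept pair of compound 4 in 2-copy cells at 0.539. Among kept arrays of a group the correlation ran to 0.75 to 0.966 for 2-copy over vector at 4 h, but was as low as -0.323 for compound 5 in vector cells and -0.406 for compound 6 in 2-copy cells. The direction of the ratios was kept, as every array has its Cy5 and Cy3 samples named alike.

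A mean per group was fitted to the 83 kept arrays, and a gene is said to have risen, fallen or changed where its adjusted p was below 0.05 (limma's moderated test, two-sided, Benjamini-Hochberg over all 6377 probes). P-values rest on 1 spread per gene, estimated over the arrays of all groups. They do not measure the spread within a single group, and array SDs ran from 0.126 to 0.731. On each comparison's own arrays 39 of 79 calls were kept. The design has the 3 samples of a time hybridised in every combination, but no source used here says array by array which cultures were the same. Another fit scaled each array by its median absolute deviation, and is called scaling below. No dyes were swapped, so a shift tied to the dye was estimated as 1 further term per gene. It was estimated from the loop of 3 strains and the loops with a compound. In that fit shared strain, time and compound effects take the place of the group means. A value under the dye term therefore also draws on the other arrays of its loops, and its move is not the dye shift alone. A dye shift common to all arrays cancels in a difference of 2 ratios, so moves of such differences are not a dye correction. For ARO9 that shift was -0.62, the 7th largest in size of 6377 probes, with an adjusted p of 0.615; it was 0.25 for ARO10, 0.12 for ARO80, -0.01 for PDC1, 0.30 for PDC5 and -0.18 for PDC6. ARO9 and ARO10 also failed to add up around the loop on some arrays, as did the PDC genes by a smaller amount. The 1-copy over vector value less the 2-copy over vector and 1-copy over 2-copy values should be 0. For ARO9 it was -0.28, 2.00 and 0.56 in replicates 1, 2 and 3 at 2 h, 0.08, 1.34 and 2.74 at 4 h and 0.10, 2.10 and 2.49 at 6 h. For ARO10 it was -2.05 in replicate 3 at 0 h and -0.92, 0.49 and 1.55 in replicates 1, 2 and 3 at 2 h, but within 0.45 of 0 at 4 h and 6 h. For PDC1 it was 0.58, 0.52 and 0.03 in replicates 1, 2 and 3 at 4 h. For PDC5 it was -0.58, -0.43 and -0.38 there, and for PDC6 -0.02, 0.80 and -0.06. The 95th percentiles of its size over all probes were 0.49, 0.444 and 0.487 in those replicates. The median size of that sum over all probes was 0.107 to 0.257, and its 95th percentile 0.444 to 1.04. Each ARO9 call below is therefore given with its value under the dye term.

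PDC1 and PDC6 had a peak in 2-copy cells at 4 h. Across the 6 arrays of 2-copy over vector at 4 h, the lowest, median and highest PDC1 values were 1.35, 1.76 and 2.24, and those of PDC6 were 0.50, 1.15 and 1.91. At 6 h PDC1 stood at -0.27, -0.01 and -0.01, and PDC6 at -0.08, -0.19 and -0.06. Every 4 h array lay above every 6 h array for both genes. PDC1 rose 3.36-fold at 4 h (mean 1.75 ± 0.36, SD, n = 6, adjusted p = 1.22e-13) and PDC6 2.24-fold (1.16 ± 0.569, adjusted p = 6.65e-15). The PDC6 mean was 0.75 with arrays 4 to 6 left out (adjusted p = 4.55e-07) and 1.57 with arrays 1 to 3 left out (adjusted p = 4.33e-16). Under the dye term the means were 1.78 for PDC1 and 1.43 for PDC6. The change of the ratio at 6 h relative to 4 h was -1.85 for PDC1 (adjusted p = 9.39e-07) and -1.27 for PDC6 (adjusted p = 7.19e-08).

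Before 4 h the isozymes differed in their values. PDC1 was at 0.72, 0.58 and 0.61 at 2 h, all above the arrays of 0 h at -0.09, -0.33 and 0.17. Its 2 h mean of 0.64 ± 0.075 (SD, n = 3) did not pass the test (adjusted p = 0.0646). It did pass with scaling (adjusted p = 0.0164), array weights (adjusted p = 0.00413), its own arrays alone (adjusted p = 0.0266) and the replicate block (adjusted p = 0.0431). PDC6 was at -0.47, -0.73 and -0.41 at 0 h, below 0 on every array, and fell there (mean -0.54, adjusted p = 0.00751). That call was lost under the dye term (-0.27, adjusted p = 0.32) and without array 1 (-0.57, adjusted p = 0.0852) or array 2 (-0.44, adjusted p = 0.131). From 0 h to 4 h the ratio rose by 1.83 for PDC1 (adjusted p = 5.32e-07) and by 1.70 for PDC6 (adjusted p = 1.20e-11), and from 2 h to 4 h by 1.11 (adjusted p = 0.00264) and 1.36 (adjusted p = 5.48e-08). The 4 h minus 2 h rise of PDC1 was lost with scaling (0.39, adjusted p = 0.354) and without replicate 3 (adjusted p = 0.0552).

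PDC5 rose at both 4 h and 6 h. Its lowest, median and highest values at 4 h were 0.47, 0.81 and 1.16, and at 6 h it was at 0.50, 0.21 and 0.97, so that the arrays of the later time overlap those of the earlier. The 4 h mean was 0.83 ± 0.257 (SD, n = 6, adjusted p = 7.96e-07) and the 6 h mean 0.56 ± 0.384 (SD, n = 3, adjusted p = 0.0178). The 6 h call was lost under the dye term (0.34, adjusted p = 0.146), with scaling (0.34, adjusted p = 0.156) and without array 3 (0.35, adjusted p = 0.293). Between 4 h and 6 h the PDC5 ratio did not change detectably (-0.27, 95% interval -0.75 to 0.21, adjusted p = 0.425). Its 4 h minus 0 h rise of 0.69 passed (adjusted p = 0.0174) but not with scaling (0.38, adjusted p = 0.182) or without replicate 2 (0.60, adjusted p = 0.142).

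ARO80, the activator gene, rose at 4 h and 6 h. Its 4 h values had a lowest of 0.43, a median of 0.63 and a highest of 0.95, and its 6 h values were 0.40, 0.59 and 0.47. At 0 h the arrays were at -0.12, 0.24 and -0.19 and at 2 h at 0.21, -0.01 and 0.18, so that no early array reached a late one. The means were 0.65 ± 0.196 at 4 h (SD, n = 6, adjusted p = 8.80e-12) and 0.49 ± 0.0944 at 6 h (SD, n = 3, adjusted p = 7.57e-05), and 0.52 and 0.34 under the dye term, where both stayed past the threshold. The rise over 0 h was 0.68 at 4 h (adjusted p = 8.67e-06) and 0.51 at 6 h (adjusted p = 0.00549), and the rise from 2 h to 4 h was 0.53 (adjusted p = 0.000875). With scaling the last 2 lost their call (0.28, adjusted p = 0.16, and 0.26, adjusted p = 0.146). Without replicate 1 or replicate 3 the 6 h minus 0 h rise had an adjusted p of 0.0753 or 0.124.

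ARO9 and ARO10, which Aro80 activates, had no called rise over vector at 4 h or 6 h. ARO9 was at -1.76, -3.10 and -2.34 at 2 h, and at 4 h its lowest, median and highest values were -3.16, -1.37 and -0.57. Every array of both times was below 0. ARO9 fell 5.28-fold at 2 h (mean -2.40 ± 0.673, SD, n = 3, adjusted p = 0.000188), a call that held under the dye term (-1.73, adjusted p = 0.00938) and with any 1 replicate left out. It also fell at 4 h (-1.69 ± 1.17, SD, n = 6, adjusted p = 1.27e-05), but under the dye term the value was -0.61 (adjusted p = 0.216). Without arrays 1 to 3 the 4 h value was -0.78 (adjusted p = 0.135), and without arrays 4 to 6 it was -2.61 (adjusted p = 2.43e-06). At 6 h the arrays had both signs (0.29, -2.82 and -1.76), and the mean of -1.43 ± 1.58 (adjusted p = 0.0105) moved to -0.49 under the dye term (adjusted p = 0.421) and -0.84 with scaling (adjusted p = 0.224). At 0 h ARO9 was at -0.78, -0.83 and -1.86 (mean -1.16, adjusted p = 0.0857; -0.60 and adjusted p = 0.531 under the dye term, -1.16 and adjusted p = 0.0415 with the replicate block). None of its 5 differences between times passed; the 2 h minus 0 h difference was -1.24 (95% interval -2.56 to 0.07). The 4 h minus 2 h difference of 0.71 (adjusted p = 0.381) passed in the fit with the dye term (1.12, adjusted p = 0.0422) and with array weights (1.34, adjusted p = 0.0259). At 4 h arrays 4 to 6 had weights of 1.31 to 3.02 and arrays 1 to 3 of 0.417 to 0.684. On arrays 1 to 3 alone the 4 h mean was -2.61, below the 2 h mean of -2.40.

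ARO10 was low at 2 h and not at 4 h. It stood at -0.05, -1.58 and -1.43 at 2 h, with array 1 near 0, while all 6 arrays of 4 h lay between 0.08 and 0.65. The 2 h fall (-1.02 ± 0.841, SD, n = 3, adjusted p = 0.043) held under the dye term (-1.06, adjusted p = 0.0323). It was lost without array 2 (-0.74, adjusted p = 0.171) or array 3 (-0.81, adjusted p = 0.35), and with all 93 arrays in the fit (adjusted p = 0.0584). From 2 h to 4 h the ARO10 ratio rose by 1.33 (adjusted p = 0.0144), but not with scaling (1.19, adjusted p = 0.0708) or without replicate 3 (1.12, adjusted p = 0.134). Its 4 h mean of 0.31 ± 0.217 (SD, n = 6) and 6 h mean of 0.33 ± 0.608 (SD, n = 3) did not pass (adjusted p = 0.268 and 0.473). The 4 h mean did pass on its own arrays alone (adjusted p = 0.00925). The 4 h minus 0 h difference of ARO10 had no call either. It passed under the dye term (0.82, adjusted p = 0.0307) and on its own arrays (0.51, adjusted p = 0.0152).

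Counted over the 6 genes, 1 fell in 2-copy over vector at 0 h, where 14.8% of all probes passed the test and 6.45% fell, and 2 fell at 2 h, where 12.2% passed and 5.33% fell. At 4 h 4 rose and 1 fell, against 61.7% of all probes, with 32% rising and 29.8% falling. At 6 h 2 rose and 1 fell, against 42.8%, with 22.6% rising and 20.2% falling. Between times, 0 of 6 changed from 0 h to 2 h (5.63% of all probes; 1 of 6 at an unadjusted p under 0.05 in limma). From 0 h to 4 h 4 rose (40.4% of all probes changed, 21.8% rising), and from 0 h to 6 h 1 rose (25.6%, 13% rising). From 2 h to 4 h 4 rose (27.7%, 14.9% rising), and from 4 h to 6 h 2 fell (33.1%, 17.2% falling). With shares of this size at 4 h, a call there is common among probes.

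**Figure D1:**
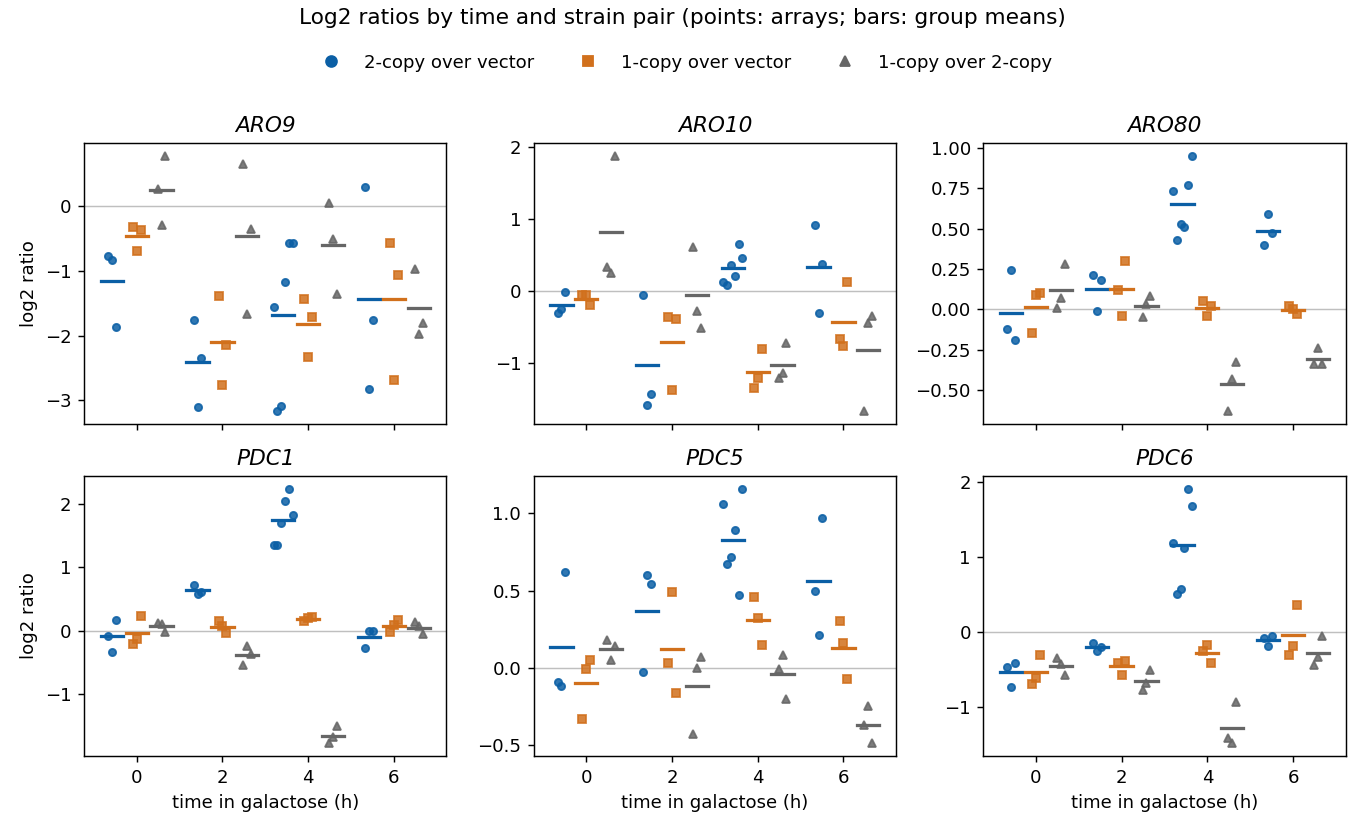
Log2 ratio (vertical) against hours of galactose induction (horizontal) for each of the 6 genes, 1 point per array: 2-copy over vector (blue circles), 1-copy over vector (orange squares) and 1-copy over 2-copy (grey triangles), with bars at the group means. PDC1 and PDC6 in 2-copy over vector are high at 4 h (means 1.75 and 1.16) and near 0 at 6 h (-0.10 and -0.11), while ARO9 lies below 0 on all arrays against vector but 1.

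In 1-copy cells PDC1 and PDC6 had no call against vector at 4 h. At 4 h, 1-copy over vector gave PDC1 at 0.15, 0.20 and 0.21 and PDC6 at -0.25, -0.18 and -0.42, and neither passed (adjusted p = 0.872 and 0.524). PDC6 did pass, as lower in 1-copy cells, with scaling (-0.43, adjusted p = 0.0218) and array weights (-0.24, adjusted p = 0.0409). The same cells set directly against 2-copy cells gave PDC1 at -1.78, -1.68 and -1.51 and PDC6 at -1.42, -1.49 and -0.93. All 6 of those values lie far below 0. PDC1 was 3.15-fold lower in 1-copy than in 2-copy cells (-1.66 ± 0.136, SD, n = 3, adjusted p = 4.48e-08) and PDC6 2.42-fold lower (-1.28 ± 0.304, SD, n = 3, adjusted p = 1.14e-10). As the samples of a time were meant for every combination, these comparisons are not separate evidence.

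ARO80 in 1-copy cells stayed within 0.05 of the vector at 4 h (0.05, -0.04 and 0.02) and was lower than in 2-copy cells at 4 h (-0.63, -0.43 and -0.33; mean -0.46, adjusted p = 0.00012) and at 6 h (-0.34, -0.24 and -0.34; mean -0.31, adjusted p = 0.012). The 6 h call was lost with scaling (-0.19, adjusted p = 0.129) and without replicate 1 (adjusted p = 0.11) or 3 (adjusted p = 0.104). ARO10 was at -1.35, -1.20 and -0.80 in 1-copy over vector at 4 h, on the other side of 0 from the 2-copy arrays. Against vector that did not pass (-1.12, adjusted p = 0.138). It did pass with scaling (-1.64, adjusted p = 0.000596), with array weights (adjusted p = 4.86e-06) and on its own arrays (adjusted p = 0.0209). Against 2-copy cells (-1.21, -1.14 and -0.72) ARO10 was lower in 1-copy cells (mean -1.02, adjusted p = 0.0125; -0.93 and adjusted p = 0.102 without replicate 1, -0.61 and adjusted p = 0.198 with scaling). PDC5 was close to equal in 1-copy and 2-copy cells at 4 h (-0.01, 0.08 and -0.20; mean -0.05, adjusted p = 0.867), but -0.46 under the dye term (adjusted p = 0.0166).

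ARO9 was also lower in 1-copy than in vector cells. Its 1-copy over vector values were -1.39, -2.76 and -2.15 at 2 h and -1.43, -2.33 and -1.72 at 4 h, all below 0. ARO9 fell at 2 h (-2.10 ± 0.685, SD, n = 3, adjusted p = 0.00215) and 4 h (-1.83 ± 0.459, SD, n = 3, adjusted p = 0.0402), and the 6 h mean of -1.44 ± 1.11 did not pass (adjusted p = 0.151). Under the dye term these were -1.53, -0.90 and -1.14, with adjusted p between 0.936 and 1. The 6 h mean did pass with scaling (-2.37, adjusted p = 0.000193) and array weights (adjusted p = 0.000575). The 2 h call was lost without replicate 3 (-2.07, adjusted p = 0.105), and the 4 h call was lost whichever of the 3 replicates was left out (adjusted p = 0.253, 0.276 and 0.396). At 6 h ARO9 was lower in 1-copy than in 2-copy cells (-0.97, -1.97 and -1.80; mean -1.58, adjusted p = 0.00499), which became -0.65 under the dye term (adjusted p = 0.285) and -0.99 with scaling (adjusted p = 0.134) and was lost without replicate 3 (adjusted p = 0.0714). PDC6 was slightly lower in 1-copy than in vector cells at 0 h (-0.54, adjusted p = 0.0237) and 2 h (-0.46, adjusted p = 0.0434), calls lost whichever replicate was left out and under the dye term. PDC6 was also lower in 1-copy than in 2-copy cells at 2 h (-0.66, adjusted p = 0.000995; -0.41 and adjusted p = 0.09 under the dye term, and adjusted p = 0.0832 without replicate 1).

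For 1-copy over vector 1 of 6 genes fell at 0 h (2.98% of all probes passed, 2.26% falling) and 2 fell at 2 h (5.76%, 4.96% falling). In the same comparison 1 fell at 4 h (0.643%, 0.502% falling) and 0 changed at 6 h (0.8%; 1 of 6 at an unadjusted p under 0.05 in limma). For 1-copy over 2-copy 0 of 6 changed at 0 h (4.5% of all probes; 2 at an unadjusted p under 0.05 in limma) and 1 was lower at 2 h (11.9%, 6.84% lower). Between those strains 4 were lower at 4 h (48%, 24.9% lower) and 2 were lower at 6 h (39.8%, 20% lower).

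All 6 transcripts fell in 2-copy cells given compound 1 or 2 at 4 h. Both are phenyl-dihydrobenzo[h]quinolinones that differ in the halogen on the phenyl ring, iodine in compound 1 and bromine in compound 2. PDC1 stood at -2.69, -1.82 and -1.81 with compound 1 and at -2.47, -2.11 and -1.77 with compound 2, relative to 2-copy cells without compound. PDC5 was at -2.12, -1.32 and -1.25 with compound 1 and at -1.96, -1.92 and -1.71 with compound 2. On all 6 arrays the PDC1 and PDC5 ratios were below that of PDC6, which ran between -1.08 and -0.54. PDC1 fell 4.31-fold with compound 1 (-2.11 ± 0.505, SD, n = 3, adjusted p = 3.08e-10) and 4.34-fold with compound 2 (-2.12 ± 0.35, SD, n = 3, adjusted p = 1.80e-10). PDC5 fell with both (means -1.56, adjusted p = 6.11e-09, and -1.86, adjusted p = 3.55e-11), and so did PDC6 (means -0.80, adjusted p = 1.23e-05, and -0.84, adjusted p = 4.75e-06). For each PDC gene both calls held under the dye term.

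ARO10, the decarboxylase gene, was at -1.87, -1.74 and -2.00 with compound 1 and at -1.86, -2.27 and -2.12 with compound 2. The 6 arrays lie close together, between -2.27 and -1.74. ARO10 fell with compound 1 (mean -1.87, adjusted p = 1.88e-05) and with compound 2 (mean -2.08, adjusted p = 2.35e-06), to -2.14 and -2.19 under the dye term. ARO9 was at -1.13, -1.50 and -1.41 with compound 1 (mean -1.35, adjusted p = 0.0188) and at -1.16, -1.79 and -1.53 with compound 2 (mean -1.49, adjusted p = 0.00888). Its calls were lost under the dye term (-0.54, adjusted p = 0.488, and -0.70, adjusted p = 0.356), with scaling (-0.93, adjusted p = 0.173, and -1.03, adjusted p = 0.118), without replicate 3 (adjusted p = 0.103 and 0.0704) and, for compound 1, without replicate 1 (adjusted p = 0.0775). ARO80 was at -0.39, -1.23 and -0.36 with compound 1, where array 2 is the low one, and at -0.53, -0.35 and -0.34 with compound 2. It fell with both (means -0.66, adjusted p = 5.60e-07, and -0.41, adjusted p = 0.000949), but with compound 2 not without replicate 1 (-0.35, adjusted p = 0.0612).

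Compounds 3 and 4 are dimethyl-dihydroquinolinones with a bromo-fluoro-phenyl group whose halogens sit at different ring positions. With compound 4 in 2-copy cells, ARO10 was at -1.61 and -1.81 on the 2 kept arrays and fell (-1.71, adjusted p = 0.00348). ARO9 fell too, at -1.70 and -1.77 (-1.74, adjusted p = 0.032; -0.84 and adjusted p = 0.466 under the dye term, -1.55 and adjusted p = 0.0691 with scaling). ARO80 (-0.55 and -0.29; mean -0.42, adjusted p = 0.0144) and PDC5 (-0.87 and -0.79; mean -0.83, adjusted p = 0.014) fell as well. PDC1 (-0.39 and -0.65; mean -0.52, adjusted p = 0.251) and PDC6 (-0.26 and -0.40; mean -0.33, adjusted p = 0.239) did not pass. With the left-out array put back, ARO10 was -1.09 (adjusted p = 0.0427), ARO80 -0.20 (adjusted p = 0.29) and PDC5 -0.52 (adjusted p = 0.108). Without replicate 1, which leaves 1 array assumed to vary like the other groups, no gene passed with compound 4, and without replicate 2 ARO9 (adjusted p = 0.118) and PDC5 (adjusted p = 0.161) did not. The 1 kept array of compound 3 in 2-copy cells, which allows no test, had ARO9 at -1.49, ARO10 at -1.55, ARO80 at -0.36, PDC1 at -0.66, PDC5 at -1.14 and PDC6 at -0.46, all below 0.

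Compound 5, named by the submitters as a dimethyl-dihydroquinolinone with an ethyl group, gave uneven arrays. PDC5 was at -2.36, -0.97 and -0.67 and PDC1 at -2.19, -0.11 and -0.67 in 2-copy cells, with array 1 lowest for both. PDC5 fell (mean -1.34, adjusted p = 4.57e-05) and kept that call with any 1 replicate left out. It lost the call on its own arrays alone (adjusted p = 0.803). Those arrays correlated with each other at 0.028 to 0.162 over all probes. PDC1 fell with all 3 arrays (-0.99 ± 1.08, SD, n = 3, adjusted p = 0.0132) but not without array 1 (-0.39, adjusted p = 0.582) or array 3 (-1.15, adjusted p = 0.0629). ARO10 was at -0.99, -0.52 and -0.58 (adjusted p = 0.311) and ARO9 at -0.94, 0.04 and -0.47 (adjusted p = 0.687; mean 0.49 and adjusted p = 0.684 under the dye term). ARO80 lay between -0.53 and -0.02 (adjusted p = 0.146; 0.0411 under the dye term) and PDC6 between -0.97 and -0.19 (adjusted p = 0.0671). Compound 6, a benzo[h]quinolinone with a ring bromine and an ethylphenyl group, given as a single stereoisomer, left every value between -0.40 and 0.25 on its 2 kept arrays.

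By mean PDC1 response in 2-copy cells the order was compound 2 (-2.12), 1 (-2.11), 5 (-0.99), 4 (-0.52) and 6 (-0.16), and no neighbours in that order differed past the threshold. Compounds 1 and 5 were nearest to it (-1.12, adjusted p = 0.0526). They passed with all 93 arrays (adjusted p = 0.041), the dye term (-1.16, adjusted p = 0.00201), array weights (-1.25, adjusted p = 0.0179), the replicate block over all arrays (adjusted p = 0.0288) and without replicate 1 (adjusted p = 0.000544). They did not with scaling (-0.53) or with the block within the compound arrays (adjusted p = 0.1). For ARO10 the order was compound 2 (-2.08), 1 (-1.87), 4 (-1.71), 5 (-0.70) and 6 (-0.33), again with no such difference between neighbours, although compounds 4 and 5 differed with the block within the compound arrays (-1.02, adjusted p = 0.0207). Counted over the 6 genes, 6 fell with compound 1 (37% of all probes passed, 19.8% falling) and 6 with compound 2 (37%, 20.5% falling). The count was 4 with compound 4 (13.1%, 8.25% falling), 2 with compound 5 (2.12%, 1.74% falling) and 0 with compound 6 (0.0157%; 0 at an unadjusted p under 0.05 in limma).

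**Figure D2:**
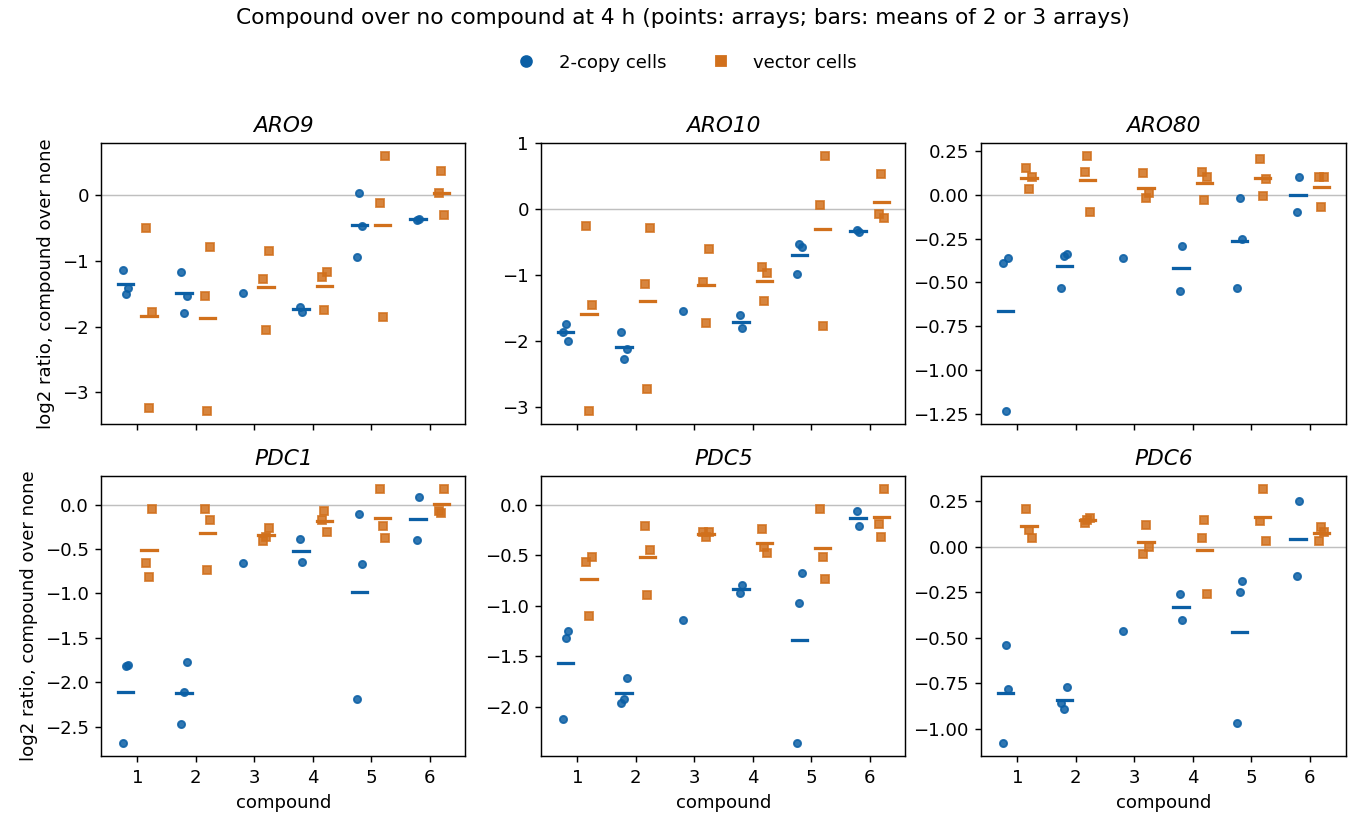
Log2 ratio of cells with a compound over the same cells without it at 4 h (vertical) for compounds 1 to 6 (horizontal), 1 point per kept array, 2-copy cells in blue on the left and vector cells in orange on the right of each compound, with bars at group means. PDC1, PDC5 and PDC6 have their lowest means with compounds 1 and 2 in 2-copy cells (-2.11 and -2.12 for PDC1, -1.56 and -1.86 for PDC5, -0.80 and -0.84 for PDC6), and the single lowest PDC5 array is with compound 5 (-2.36). ARO9 and ARO10 are below 0 on every array of both strains with compounds 1 to 4. With compound 6 in vector cells their means are 0.04 and 0.11. ARO80 in vector cells stays between -0.10 and 0.22.

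In vector cells ARO9 and ARO10 fell with compounds 1 and 2, while ARO80, PDC1 and PDC6 did not pass with any compound. ARO10 was at -0.25, -3.06 and -1.45 with compound 1 and at -1.14, -2.73 and -0.29 with compound 2, and ARO9 at -0.50, -3.23 and -1.78 and at -1.53, -3.28 and -0.79. Array 2 was the lowest in all 4 sets. ARO10 fell with compound 1 (-1.59 ± 1.41, SD, n = 3, adjusted p = 0.0032) and with compound 2 (-1.39 ± 1.24, SD, n = 3, adjusted p = 0.0148), and its means under the dye term were -1.83 and -1.79. ARO9 fell too (-1.84, adjusted p = 0.0117, and -1.87, adjusted p = 0.0147), with values that became -1.40 (adjusted p = 0.142) and -1.42 (adjusted p = 0.151) under the dye term. PDC5 fell with compound 1 (-0.57, -1.10 and -0.52; mean -0.73, adjusted p = 0.0172). All 5 calls were lost without array 2, where ARO10 was -0.85 and -0.72 (adjusted p = 0.441 for each), ARO9 -1.14 (adjusted p = 0.503) and -1.16 (adjusted p = 0.369), and PDC5 -0.55 (adjusted p = 0.628). Without array 1 both calls of compound 2 were lost (adjusted p = 0.0888 for ARO9 and 0.0988 for ARO10), and without array 3 that of ARO9 with compound 1 (adjusted p = 0.0758).

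With compounds 3 and 4 in vector cells ARO9 and ARO10 were below 0 on all 6 arrays without passing the test. ARO10 was at -1.11, -1.73 and -0.61 with compound 3 (mean -1.15, adjusted p = 0.178) and at -0.88, -1.40 and -0.97 with compound 4 (mean -1.08, adjusted p = 0.217). ARO9 averaged -1.39 with each (adjusted p = 0.297 and 0.258; -0.92 and -0.96 under the dye term). All 4 values passed with scaling (ARO10 -1.86 and -1.79, ARO9 -2.25 and -2.31), with array weights and on each comparison's own arrays (adjusted p between 0.0264 and 0.0403). PDC1 with compound 3 passed in the same 3 fits (-0.56 and adjusted p = 0.0441 with scaling). PDC5 with compound 2 passed under the dye term (-0.91, adjusted p = 0.00955), with scaling, with array weights and without replicate 1. With compound 3 PDC5 passed with array weights and on its own arrays. With compound 4 it passed with scaling (-0.61, adjusted p = 0.00911) and array weights. With compound 5 the arrays had both signs for ARO10 (0.07, -1.77 and 0.81), again with array 2 the low one, and with compound 6 ARO10 stayed between -0.14 and 0.53. ARO80 ran from -0.10 to 0.22 and PDC6 from -0.26 to 0.32 over all 18 vector arrays with a compound. Of the 6 genes, 3 fell with compound 1 (5.27% of all probes passed, 4.09% falling) and 2 with compound 2 (2.15%, 1.24% falling). For compounds 3, 4, 5 and 6 the count was 0 (0.345%, 0.392%, 0.768% and 0.0157% of all probes), and 2, 2, 1 and 0 genes had an unadjusted p under 0.05 in limma.

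The response of 4 genes to compounds 1 and 2 differed between the strains. The difference of the responses (2-copy minus vector cells) was -1.60 for PDC1 with compound 1 (adjusted p = 0.000423) and -1.80 with compound 2 (adjusted p = 9.11e-05). For PDC6 it was -0.91 (adjusted p = 0.00103) and -0.99 (adjusted p = 0.000366), for PDC5 -0.83 (adjusted p = 0.029) and -1.35 (adjusted p = 0.000366), and for ARO80 -0.75 (adjusted p = 0.000137) and -0.49 (adjusted p = 0.0116). The 8 cases were picked by their call on these same arrays. In each, every 2-copy array lay below every vector array, which is no further support and was not counted over all probes. ARO9 (0.49 and 0.37, adjusted p = 0.671 and 0.773; 0.85 and 0.72 under the dye term) and ARO10 (-0.29 and -0.70, adjusted p = 0.751 and 0.371) showed no such difference, with 95% intervals for ARO10 of -1.27 to 0.70 and -1.68 to 0.29. Without replicate 1 the calls of PDC5 (-0.48, adjusted p = 0.259) and PDC6 (-0.73, adjusted p = 0.11) with compound 1 and of ARO80 with compound 2 (-0.41, adjusted p = 0.222) were lost. Without replicate 3 that of PDC5 with compound 1 was (-0.89, adjusted p = 0.0971). With scaling the calls of PDC5 with compound 1 (-0.23, adjusted p = 0.639) and ARO80 with compound 2 (-0.35, adjusted p = 0.0728) were lost. On each comparison's own arrays those of ARO80, PDC1, PDC5 and PDC6 with compound 1 were lost (adjusted p = 0.188, 0.0645, 0.192 and 0.0662). That of ARO80 with compound 2 was lost there too (adjusted p = 0.0793).

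Read from the other arrays of the same loop (2-copy over vector with compound, less 2-copy over vector without it), all 8 differences kept their call. There ARO9 with compound 1 passed as well (1.5, adjusted p = 0.049), as did ARO80 with compound 5 (-0.41, adjusted p = 0.0372). Both readings rest on the same spread per gene, and which cultures their arrays share is not known. Of the 6 genes 4 had the lower response in 2-copy cells with compound 1 (17.4% of all probes differed, 9.63% lower) and 4 with compound 2 (15.8%, 10.2% lower). With compounds 4, 5 and 6 the count was 0 (2.32%, 0.0784% and 0 of all probes), and 1, 4 and 0 genes had an unadjusted p under 0.05 in limma. With compound 5 the PDC1 difference was -0.84 (95% interval -1.51 to -0.17, adjusted p = 0.314) and the PDC5 difference -0.91 (-1.46 to -0.35, adjusted p = 0.197). In the fit with the dye term, which also draws on the other side of the loop, 4 genes passed with compound 5. They were ARO80 (-0.38, adjusted p = 0.00242), PDC1 (-0.69, adjusted p = 0.0199), PDC5 (-0.72, adjusted p = 0.0034) and PDC6 (-0.50, adjusted p = 0.0116). With compound 4 ARO80 passed under the dye term (-0.47, adjusted p = 0.00375), with scaling (-0.48, adjusted p = 0.046) and with array weights (-0.51, adjusted p = 0.00985).

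All 15 pairs of compounds in vector cells and all 10 pairs among compounds 1, 2, 4, 5 and 6 in 2-copy cells were compared at 4 h, with p-values adjusted over all probes and pairs of a strain. Since doses are not given, whether they were matched is unknown. Iodine against bromine (compound 1 minus 2) gave no difference past the threshold in 2-copy cells: 0.21 for ARO10 (95% interval -0.77 to 1.20), 0.15 for ARO9 (-1.17 to 1.47), -0.25 for ARO80 (-0.54 to 0.03), 0.01 for PDC1 (-0.66 to 0.68), 0.30 for PDC5 (-0.26 to 0.86) and 0.04 for PDC6 (-0.37 to 0.45). In vector cells the same pair gave -0.20 for ARO10 (-1.19 to 0.78) and -0.18 for PDC1 (-0.85 to 0.49). Moving the halogens of the phenyl group (compound 3 minus 4) gave -0.07 for ARO10 (-1.05 to 0.92) and -0.01 for ARO9 (-1.32 to 1.31) in vector cells. Same-numbered arrays of compounds 1 and 2 in 2-copy cells deviated together (r = 0.668, 0.678 and 0.741), as did those of compounds 3 and 4 in vector cells (r = 0.46, 0.387 and 0.668). With the replicate number as a block within the compound arrays of the strain, the interval of compound 1 minus 2 in 2-copy cells was -0.15 to 0.57 for ARO10, -0.39 to 0.68 for ARO9, -0.74 to 0.23 for ARO80, -0.72 to 0.74 for PDC1, -0.32 to 0.91 for PDC5 and -0.35 to 0.42 for PDC6. That of compound 3 minus 4 in vector cells was -1.24 to 1.11 for ARO10 and -1.13 to 1.12 for ARO9.

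The benzo[h]quinolinones 1 and 2, which carry a halogen on the phenyl ring, differed from benzo[h]quinolinone 6, which carries an ethyl group there and its bromine on the fused rings. PDC1 was lower with compound 1 than with compound 6 (difference -1.95, 95% interval -2.70 to -1.20, adjusted p = 0.000832) and lower with compound 2 (-1.96, -2.71 to -1.21, adjusted p = 0.000804). For PDC5 the differences were -1.43 (adjusted p = 0.00374) and -1.73 (adjusted p = 0.000342), for PDC6 -0.85 (adjusted p = 0.0267) and -0.88 (adjusted p = 0.0185), and for ARO80 -0.66 with compound 1 (adjusted p = 0.0101). PDC1 also separated compound 1 from compound 4 (-1.59, adjusted p = 0.0079) and compound 2 from compound 4 (-1.59, adjusted p = 0.00759) and from compound 5 (-1.13, adjusted p = 0.0499), and PDC5 separated compound 5 from compound 6 (-1.20, adjusted p = 0.0188). These 11 of 60 values compare with 2.64% of all probes and pairs; without replicate 2 none of the 11 passed, nor did any on each pair's own arrays, with scaling 1 did, and compound 6 has 2 kept arrays that correlate at -0.406.

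With replicate number as a block within the compound arrays of 2-copy cells, 18 of 60 passed. The block added ARO10 in compound 1 minus 5 (-1.18, adjusted p = 0.00814), 2 minus 5 (-1.39, adjusted p = 0.00504), 1 minus 6 (adjusted p = 0.00542), 2 minus 6 (adjusted p = 0.00349), 4 minus 5 (adjusted p = 0.0207) and 4 minus 6 (adjusted p = 0.00917). It added ARO9 in 2 minus 5 (-1.04, adjusted p = 0.0465), 4 minus 5 (-1.30, adjusted p = 0.0361) and 4 minus 6 (-1.37, adjusted p = 0.0369). Under the dye term without a block these ARO9 values were -1.19, -1.33 and -1.41 (adjusted p = 0.221 to 0.273). It ended the calls of PDC1 in 2 minus 5 (adjusted p = 0.0982) and ARO80 in 1 minus 6 (adjusted p = 0.164). In vector cells 0 of 90 values passed (0.0523% of all probes and pairs), and 13 had an unadjusted p under 0.05 in limma.

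With a compound present in both strains, the 2-copy over vector ratio of ARO80 at 4 h was -0.01, 0.12 and 0.07 for compound 1 and 0.11, 0.11 and 0.08 for compound 2, against 0.43 to 0.95 on the 6 arrays without compound. None of those 6 compound arrays reached the lowest array without compound. PDC1 was at -0.57, 0.87 and 0.59 with compound 1 and at -0.43, 0.39 and 0.27 with compound 2, all below the 1.35 to 2.24 of the arrays without compound. PDC6 remained higher in 2-copy cells: 0.33, 0.96 and 0.73 with compound 1 (mean 0.67, adjusted p = 0.000944) and 0.47, 0.61 and 0.59 with compound 2 (mean 0.55, adjusted p = 0.00938). Without replicate 2 both calls were lost (0.53 and adjusted p = 0.188, 0.53 and adjusted p = 0.187), and for compound 2 also without replicate 1 (adjusted p = 0.0584) or 3 (adjusted p = 0.102).

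With compound 5 in both strains PDC6 was at 0.78, 0.91 and 0.78 (mean 0.82, adjusted p = 7.75e-06). PDC1 was at -0.19, 1.95 and 1.72 (mean 1.16 ± 1.18, SD, n = 3, adjusted p = 8.89e-05), where array 1 had the other sign. Array 1 was also the one with the lowest PDC1 in 2-copy cells with compound 5. Without replicate 2 or 3 the PDC1 value was 0.77 (adjusted p = 0.0857) or 0.88 (adjusted p = 0.0557). The single kept arrays of compounds 3, 4 and 6 had PDC1 at 0.90, 0.87 and 1.88, PDC6 at 1.45, 1.06 and 1.34 and ARO80 at 0.15, 0.18 and 0.43. Of the 6 genes 1 was higher with compound 1 (9.94% of all probes passed, 5.07% higher), 1 with compound 2 (7.75%, 3.06% higher) and 2 with compound 5 (32.5%, 17.8% higher). ARO9 and ARO10 passed in none of the 3 comparisons, with means between -0.34 and 0.34.

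**Figure D3:**
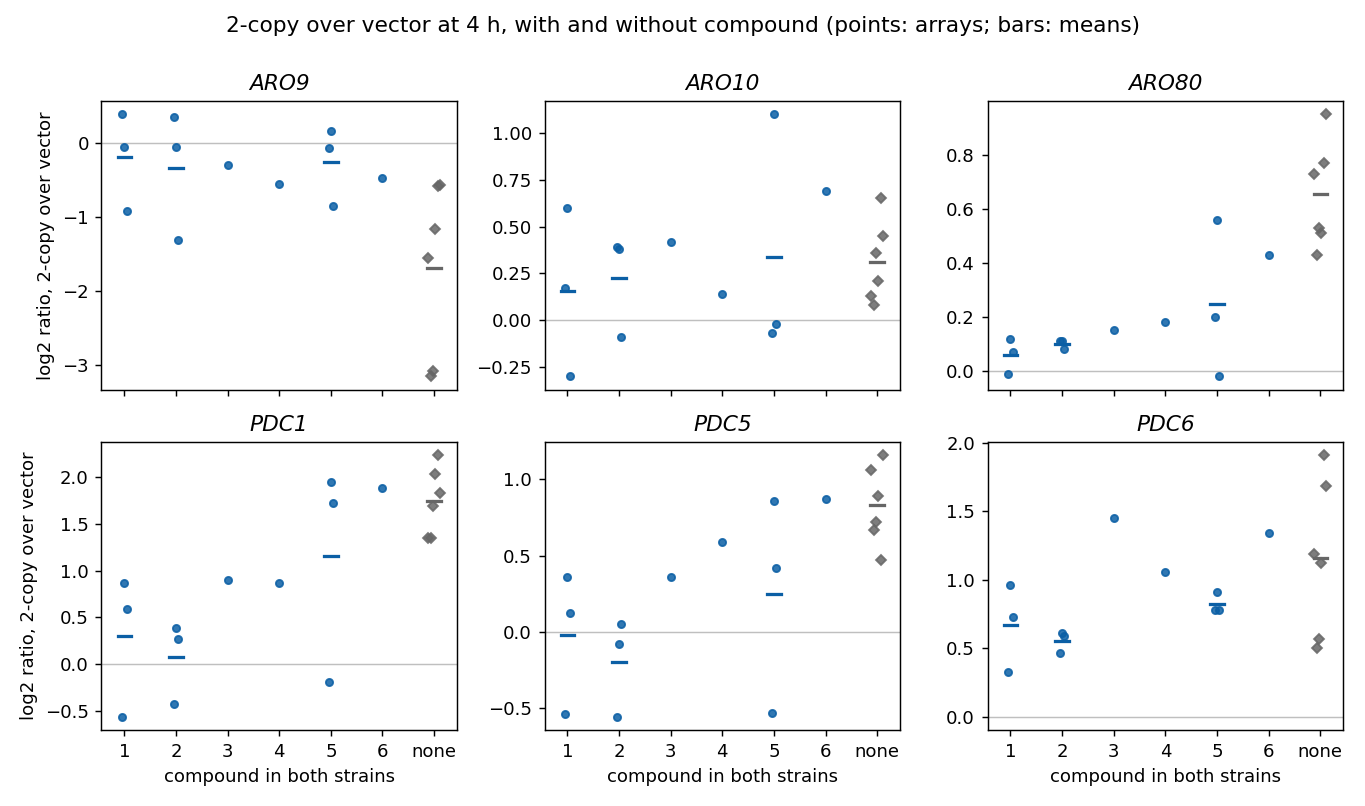
Log2 ratio of 2-copy over vector cells at 4 h (vertical) with the same compound in both strains (compounds 1 to 6, blue) or with none (grey diamonds, right), 1 point per kept array with bars at group means, for each of the 6 genes. ARO80 and PDC1 with compounds 1 and 2 lie below every array without compound, and PDC6 stays above 0 on every array shown.

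ARO9 and ARO10 varied together across arrays with a compound. Over the 18 vector arrays Pearson's r between them was 0.991 (Spearman's rho 0.992), and over the 14 kept 2-copy arrays it was 0.898 (0.745). Over the 15 arrays of 2-copy over vector in the time course it was 0.538 (0.536). PDC1 with PDC5 had r = 0.833 in vector and 0.892 in 2-copy cells with a compound. PDC1 with PDC6 had r = 0.939 in 2-copy cells with a compound, 0.901 in the time course and -0.0195 in vector cells with a compound, where PDC6 ran from -0.26 to 0.32. These are descriptions: arrays of a group share their treatment, and arrays of 1 number may share an untreated culture.

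**Figure D4:**
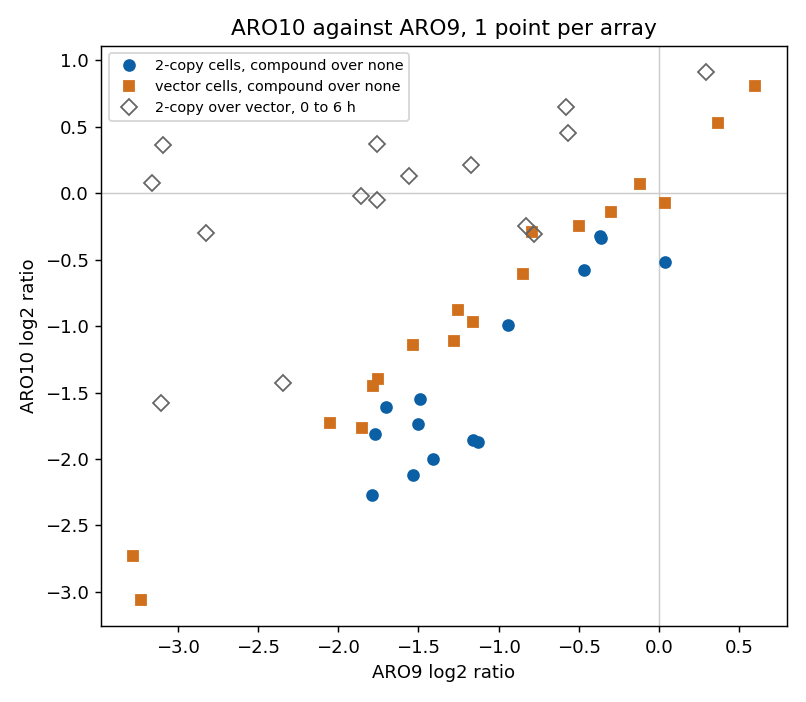
ARO10 log2 ratio (vertical) against ARO9 log2 ratio (horizontal), 1 point per array, for compounds in 2-copy cells (blue), compounds in vector cells (orange) and 2-copy over vector in the time course (open grey diamonds). The vector arrays lie along a line (r = 0.991, n = 18), and the time course arrays of 4 h lie off it, with ARO10 above 0 and ARO9 below.

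Over the means of the 26 groups with 2 or more kept arrays, the probes most like each gene by Pearson's r were ARG7 and GDH2 for ARO10 (0.922 and 0.919), APP1, HOC1 and THI21 for ARO80 (0.962, 0.957 and 0.95) and NCR1, ACT1 and UFD1 for PDC1 (0.96, 0.958 and 0.949). They were YEF3, SSO1 and MTD1 for PDC5 (0.922, 0.913 and 0.9) and PHM8, SRX1 and PDR5 for PDC6 (0.93, 0.925 and 0.906). ARO9 had no close neighbour: its nearest were UPS3, RPB11 and SRL4 at 0.686, 0.653 and 0.633. None of the 6 genes was among the nearest 3 of another.

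The Ehrlich list holds 21 measured genes. It includes genes that take the aldehydes made by Aro10 to fusel alcohols and acids, and others such as ARO8, BAT1, BAT2, ATF1 and PDR12. Of the 21, 9 rose and 6 fell in 2-copy over vector at 4 h (median 0.13, against 0 over all probes). Of all probes 32% rose and 29.8% fell. ALD3 and ALD2, neighbouring genes for cytosolic aldehyde dehydrogenases, rose (2.53 ± 0.886, adjusted p = 4.77e-13, and 0.89 ± 0.112, adjusted p = 1.95e-10), and ALD4, for a mitochondrial aldehyde dehydrogenase, fell (-0.85, adjusted p = 7.78e-06). ADH2, for the alcohol dehydrogenase that oxidises ethanol, fell by 0.73 (adjusted p = 0.000116; -0.35 and adjusted p = 0.147 under the dye term). At 2 h ALD3 had already risen (1.31, adjusted p = 0.00889), with 2 of 21 higher and 1 lower, against 12.2% of all probes past the threshold. At 6 h 4 of 21 rose and 9 fell (median -0.25, against 22.6% and 20.2% of all probes), with ALD4 at -1.88 and ADH2 at -1.48.

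Genes of aromatic amino acid synthesis were low at 6 h: 7 of 12 were lower in 2-copy than in vector cells and 0 higher (median -0.43), against 20.2% of all probes lower. The lowest were TRP4 (-1.46, adjusted p = 1.99e-07) and TRP5 (-0.88, adjusted p = 7.91e-10) of tryptophan synthesis, TRP2 (-0.66, adjusted p = 0.000186) of its first step, and ARO4 (-1.38, adjusted p = 2.90e-12), for a first-step enzyme of the whole aromatic pathway. At 4 h 3 of 12 were higher and 4 lower, against 32% and 29.8% of all probes. TRP4 was at -1.69 and ARO4 at -0.71, while TYR1 of tyrosine synthesis was at 0.66. TRP1 was higher too (1.26), and it is the marker gene of the pRS304 plasmid named for the 2-copy strain.

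Among nitrogen regulators and amino acid permeases 9 of 16 rose and 4 fell at 4 h (median 0.28), against 32% and 29.8% of all probes. MEP2, the ammonium permease gene, rose by 1.16 (adjusted p = 2.31e-09) and DAL80, for a GATA-factor repressor, by 0.95 (adjusted p = 6.79e-08), while TAT1, for a permease of aromatic and branched-chain amino acids, fell by 1.04 (adjusted p = 1.96e-09). GAP1, the general amino acid permease gene, was higher by 0.85 (adjusted p = 9.60e-05), but 0.39 under the dye term (adjusted p = 0.244). At 2 h 0 of 16 changed in limma (1 at an unadjusted p under 0.05), against 12.2% of all probes. At 6 h 3 rose and 3 fell, against 22.6% and 20.2% of all probes.

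Of 9 genes of thiamine supply and its regulation, 5 rose and 1 fell at 4 h (median 0.16), against 32% and 29.8% of all probes. THI20 (2.25 ± 0.169, SD, n = 6, adjusted p = 3.66e-20) and THI4 (1.10 ± 0.624, SD, n = 6, adjusted p = 6.06e-14), both of thiamine synthesis, rose, as did the regulator THI2 (0.46, adjusted p = 3.28e-06). PHO3, an acid phosphatase gene repressed by thiamine, fell by 0.33 (adjusted p = 0.0395). At 6 h THI4 was at 1.45 and THI80, for thiamine pyrophosphokinase, at -0.85, with 3 of 9 higher and 4 lower, against 22.6% and 20.2% of all probes. In the pyruvate branch 5 of 16 rose and 6 fell at 4 h, close to the 32% and 29.8% of all probes. MPC3, for a subunit of the mitochondrial pyruvate carrier, was at -2.07, CYB2, for the lactate dehydrogenase of mitochondria, at -1.66, ACS2 of acetyl-CoA synthesis at -0.73 and PYC1, for pyruvate carboxylase, at 0.80. In 1-copy over vector at 2 h and at 4 h 0 of the 74 entries of the 5 lists passed in limma (6 at an unadjusted p under 0.05 at each time). Of all probes 5.76% passed at 2 h and 0.643% at 4 h. In 1-copy over 2-copy at 4 h ALD3 was lower (-2.93), as were THI20 (-1.92) and THI4 (-1.28), and MPC3 was higher (2.13).

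With compounds 1 and 2 in 2-copy cells, ALD3 (-1.12 and -1.08), THI20 (-1.18 and -1.25) and THI4 (-0.69 and -0.83) fell. TRP4 (0.98 and 0.99), MEP2 (1.03 and 1.05), MPC3 (1.22 and 1.01, neither past the threshold under the dye term) and PHO3 (1.54 and 1.03) rose, and TYR1 fell (-1.05 and -0.74). By list the numbers higher and lower with compound 1 were 1 and 3 of 21 for the Ehrlich pathway, 4 and 3 of 12 for aromatic synthesis, 4 and 4 of 16 for nitrogen, 3 and 3 of 9 for thiamine and 1 and 5 of 16 for the pyruvate branch. Of all probes 37% passed and 19.8% were lower. With compound 4 PHO3 rose (1.42, adjusted p = 2.99e-05), and THI4 (-0.59, adjusted p = 0.0193) and TYR1 (-0.66, adjusted p = 0.00479) fell. With compound 5 1 gene of the 5 lists passed, SFA1 (-0.56, adjusted p = 0.00937), against 2.12% of all probes. With compound 6 none passed in limma (0 at an unadjusted p under 0.05), against 0.0157% of all probes. In vector cells MEP2 rose with compounds 1 and 2 (1.16 and 1.49) and ARO3, for the other first-step enzyme of aromatic synthesis, fell (-0.81 and -0.93). Of the thiamine genes 0 of 9 passed with any of the 6 compounds (0 at an unadjusted p under 0.05 in limma). Of all probes 0.0157% (compound 6) to 5.27% (compound 1) passed in vector cells.

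**Figure D5:**
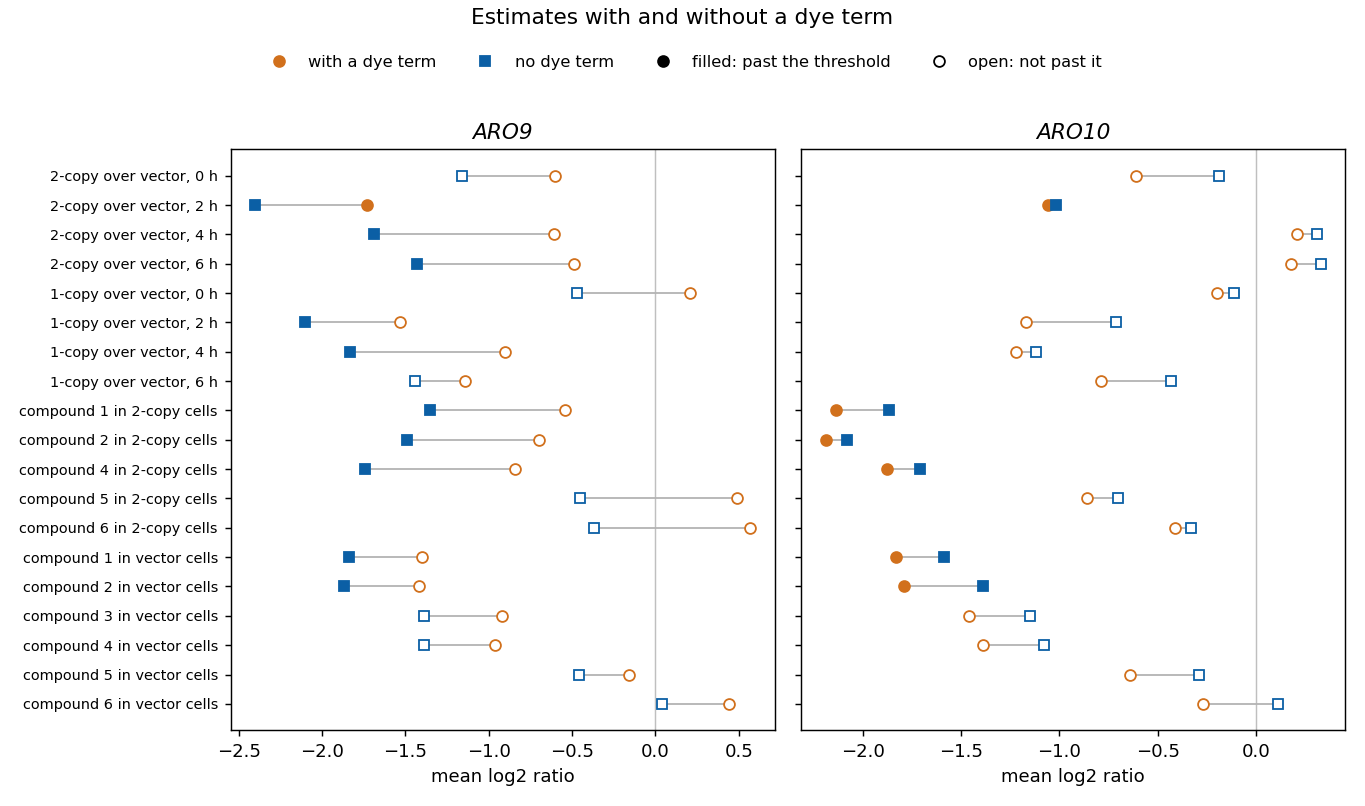
Mean log2 ratio (with its comparison named on the other axis) of ARO9 and ARO10 estimated without a dye term (blue squares) and with one (orange circles); filled symbols passed the threshold of 0.05 on adjusted p. ARO9 moved towards 0 in 2-copy over vector at 4 h (-1.69 without and -0.61 with the term), whereas ARO10 with compound 1 in 2-copy cells was -1.87 without and -2.14 with it.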

How the data were processed

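The deposited values are log2 ratios of 93 dual-colour arrays of total RNA, normalised by the authors; limma is named per the submitters' processing notes, without a version, and no source used here gives the normalisation. Neither scale nor direction is stated: the values were taken as log2 ratios with Cy5 on top, by limma's convention and the channels in the labels. Array medians lay between -0.0306 and 0.0214 and SDs between 0.126 and 0.731. Raw intensities were not analysed here, so signal over background is unknown, and the number of arrays limits the precision.

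Of 6377 probes, 5644 matched a RefSeq locus tag, 196 after a hyphen was written and 537 no gene; 5227 had a symbol and 0 values were missing. The 83 kept arrays were fitted with 1 mean per group in limma 3.58.1 (R 4.3.3), in a test checked on simulated data, with 57.6 degrees of freedom, 4.61 of them from the prior. P-values were adjusted by Benjamini-Hochberg over all probes of a comparison (for pairs of compounds, over all probes and pairs), threshold 0.05. Differences between times, strains and compounds are differences of group means. The alternatives were all 93 arrays, a dye term, scaling by each array's median absolute deviation, array weights, a fit on a comparison's own arrays, a replicate block, leaving out each replicate number, and the other side of the loop. A replicate block within the compound arrays of 1 strain and leaving out arrays 1 to 3 of 2-copy over vector at 4 h were chosen after seeing the data. Same-numbered arrays of compounds 1, 2 and 5 in 2-copy cells deviated together (3 of 3 differences with every r above 0.1), as did 4 of 15 pairs of compounds in vector cells; no difference between times or strains met that rule.

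The 6 genes and 5 gene lists (74 entries, all measured, with THI3 in both the Ehrlich and the thiamine list) were chosen with earlier results of these data known. From each list up to 4 genes past the threshold with the largest mean were named, and for each of the 6 genes the 3 probes most like it, of which 1 is not reported here.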

Additional observations from a re-analysis of the deposited data

Results flagged for a closer look

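Among the 6 genes, 11 changes of the 2-copy over vector ratio between times and 8 differences of a compound's response between 2-copy and vector cells passed the test of the difference itself. From 0 h to 4 h the ratio differed by 0.68 for ARO80, 1.83 for PDC1, 0.69 for PDC5 and 1.70 for PDC6, and from 0 h to 6 h by 0.51 for ARO80. From 2 h to 4 h it differed by 1.33 for ARO10, 0.53 for ARO80, 1.11 for PDC1 and 1.36 for PDC6. From 4 h to 6 h it differed by -1.85 for PDC1 and -1.27 for PDC6. PDC1 and PDC6 were thus the genes with a called change on both sides of 4 h.

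For compound 1 the response in 2-copy minus vector cells was -0.75 for ARO80, -1.60 for PDC1, -0.83 for PDC5 and -0.91 for PDC6. For compound 2 it was -0.49 for ARO80, -1.80 for PDC1, -1.35 for PDC5 and -0.99 for PDC6. In the group of 6 arrays of 2-copy over vector at 4 h, 0 of 6 genes had an array far from the others by Dixon's test. That test looks for 1 stray array and cannot show a split of arrays 1 to 3 from arrays 4 to 6. With arrays 4 to 6 left out the mean was -2.61 for ARO9 and 0.75 for PDC6. With arrays 1 to 3 left out the means were -0.78 and 1.57.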

How the results depend on the processing

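Of 79 calls on the 6 genes, 0 were reversed under any alternative. With all 93 arrays 75 were kept, under the dye term 64, with scaling 54, with array weights 70, on each comparison's own arrays 39 and under the replicate block 79 (6 gained); leaving out replicate number 1, 2 or 3 kept 53, 51 or 54. The count for 2-copy over vector by time was 11, and 7 under the dye term. For 1-copy over vector it was 4, but 0 under the dye term, 7 with scaling, 8 with array weights, 2 on its own arrays and 0 to 1 with a replicate left out. The count of 7 for 1-copy over 2-copy ran from 4 to 9 with a replicate left out. The 11 changes between times were 6 with scaling. The 5 calls for compounds in vector cells were 12 with scaling, 13 with weights and 0 to 4 with a replicate left out. For compounds in 2-copy cells 18 became 11 to 17 with a replicate left out. With a compound in both strains 4 became 1 on own arrays and 1 to 5 with a replicate left out. The 8 differences in response were 13 under the dye term, 3 on own arrays and 5 to 9 with a replicate left out, and all 8 were kept on the other side of the loop, with 2 gained (ARO9 with compound 1 and ARO80 with compound 5). Pairs of compounds in vector cells gave 0, but 6 with scaling and 11 with weights. Pairs in 2-copy cells gave 11, but 18 under the dye term, 1 with scaling, 0 on own arrays, 0 to 8 with a replicate left out and 18 with the replicate block within those compound arrays. The block over all arrays changed no other call than the 6 gained, among them PDC1 in 2-copy over vector at 2 h (adjusted p = 0.0431). The cause of these moves was not tested, apart from fewer arrays where arrays were left out. Compounds 4 and 6 in 2-copy cells have 2 kept arrays and 4 groups have 1; without doses, raw intensities or dye swaps, small differences between compounds and dye effects per gene are poorly bounded.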
